A study of Mus musculus with 6 samples.

Results

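The co-receptors and adaptors of the Toll-like receptors, a set of 10 genes, were followed in bone marrow-derived monocytes (BMDM) and brainstem microglia (BSM), namely Cd14, Ly96, Cd180, Ly86, Myd88, Ticam1, Ticam2, Irak4, Irak3 and Unc93b1. They were chosen by symbol as co-receptors, adaptors and proximal kinases of these receptors, and all 10 were found among the 35237 genes with a Cufflinks FPKM and among the 36536 entries of the ALEXA-Seq table. FPKM is the number of fragments scaled by transcript length and by the fragments mapped in the library, so that levels may be compared between genes. ALEXA-Seq quantified the same RNA a second time in linear values, and their unit was not given in the sources used here.

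The data came from 6 RNA-Seq libraries, 3 from BMDM and 3 from BSM of C57BL/6 mice aged 6 weeks, with no transgene or treatment named in the labels of either group. BMDM were sorted from bone marrow as CD11b+ CD45high CD115+ Ly6G- cells and BSM from the brainstem as CD11b+ CD45low CD115low Ly6G- cells, each library being a pool of mice. Replicate 1 of each cell type came from male mice and replicates 2 and 3 from female mice. Despite their name, BMDM were taken directly from marrow and were not grown in culture, and tissue, gate and cell type differ together between the groups.

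Toll-like receptors are membrane proteins that detect microbial products and nucleic acids. Cd14 hands lipopolysaccharide to the complex of Tlr4 and MD-2, the protein of Ly96, while Cd180 and its partner MD-1, the protein of Ly86, form a related receptor complex without a signalling domain of the Toll type. Signals pass through Myd88 to the kinase Irak4, a route restrained by Irak3, or through Ticam1 (TRIF), which Tlr4 reaches by way of the bridging adaptor Ticam2 (TRAM). Unc93b1 carries the nucleic acid-sensing receptors from the endoplasmic reticulum to endosomes. Microglia and monocytes both use this machinery in innate defence.

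RefSeq promoter windows, 250 bases before to 50 bases after a transcription start, were matched by symbol for 6 of the 10 members, as 8 windows on GRCm38.p6. The windows of Irak4 and Irak3 are shown because both IRAK genes were higher in BMDM, and those of Cd180 and Ly86 because this pair had high levels in both cell types. Capitals mark GAGGAA, the core bound by ETS factors such as PU.1 with its purine flank. For Irak3 and Cd180, which have more than 1 listed start, the window lying farthest upstream is printed.
Irak4 (chr15:94543410-94543709, plus strand): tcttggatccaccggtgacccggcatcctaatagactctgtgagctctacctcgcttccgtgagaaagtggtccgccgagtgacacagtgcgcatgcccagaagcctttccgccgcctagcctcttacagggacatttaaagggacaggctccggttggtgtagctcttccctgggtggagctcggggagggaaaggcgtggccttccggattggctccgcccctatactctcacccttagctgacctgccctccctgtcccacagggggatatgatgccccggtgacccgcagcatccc
Irak3 (chr10:120202081-120202380, minus strand): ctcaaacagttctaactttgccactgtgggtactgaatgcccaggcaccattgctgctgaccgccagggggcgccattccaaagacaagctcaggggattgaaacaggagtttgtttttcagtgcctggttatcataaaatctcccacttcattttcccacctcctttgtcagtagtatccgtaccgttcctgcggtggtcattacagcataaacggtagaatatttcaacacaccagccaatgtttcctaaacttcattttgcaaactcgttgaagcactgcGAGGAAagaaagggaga
Cd180 (chr13:102693297-102693596, plus strand): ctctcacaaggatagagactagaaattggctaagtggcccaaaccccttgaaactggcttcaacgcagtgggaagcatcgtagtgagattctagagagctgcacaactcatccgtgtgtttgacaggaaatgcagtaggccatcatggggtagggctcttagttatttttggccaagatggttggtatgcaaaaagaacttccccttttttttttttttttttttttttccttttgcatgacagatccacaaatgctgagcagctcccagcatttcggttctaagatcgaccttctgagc
Ly86 (chr13:37345095-37345394, plus strand): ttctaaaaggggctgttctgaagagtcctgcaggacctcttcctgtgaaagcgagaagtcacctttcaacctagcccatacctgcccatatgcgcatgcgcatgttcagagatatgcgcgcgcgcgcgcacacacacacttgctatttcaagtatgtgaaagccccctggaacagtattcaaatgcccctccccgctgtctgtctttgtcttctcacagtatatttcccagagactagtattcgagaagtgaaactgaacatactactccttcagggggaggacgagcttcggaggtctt
On both strands, GAGGAA was found in 2 of the 8 windows, once in that of Ticam1 and once in the printed window of Irak3, where it begins at base 34 of the transcript. Of all 32851 RefSeq windows of this length, 28.3% held these letters. TGANTCA, the site of AP-1 factors such as Fos and Jun, was found in 0 of the 8 windows, and 7.81% of all windows held it. The matches describe these letters in these windows, and binding was not measured.

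The libraries carried the genes of their labelled cell types. The 7 microglial markers, P2ry12, P2ry13, Cx3cr1, Tmem119, Sparc, Csf1r and Siglech, summed to between 889 and 1020.5 FPKM in BSM and to between 26.6 and 30.6 in BMDM. The 6 monocyte markers, with Lyz2 the highest, summed to between 1432 and 2879 FPKM in BMDM and to between 4.96 and 6.67 in BSM, where Ly6c2 and Ly6c1 were at 0. The 8 granulocyte and progenitor genes summed to between 44.6 and 260 FPKM in BMDM, highest in BMDM replicate 2, and to at most 0.0539 in BSM. Of other cell types, 6 dendritic cell markers reached 12.01 FPKM in BMDM, 6 astrocyte markers reached 9.52 in BSM with Slc1a3 as the main gene and Gfap at 0, and B cell, T cell and neuronal lists stayed at or under 2.92 in every library. Perivascular macrophage markers summed to between 113 and 159 in BMDM, mainly F13a1, which monocytes also express, and to at most 4.79 in BSM, while oligodendrocyte markers reached 12.8 in BMDM, mainly Mbp, and endothelial markers 3.87. All genes together summed to between 163199 and 194184 FPKM in BMDM and to between 68288 and 75021 in BSM, a ratio of 2.50 between the group means. The median gene tested was 0.81 higher in BMDM on the log2 scale. This median depended on the FPKM minimum, at 0.58 with a minimum of 1 and 0.03 with none. Each member tested by FPKM is therefore given as deposited, relative to the median of 0.81, and after quantile normalization, which brought the median to 0.02. BSM replicate 1 stood apart, with 472 of the 6364 tested genes (7.42%) listed at 0 FPKM against 51 to 115 in the other libraries, so results that rest on it are also given without it. In the paper's quality data this library also had the lowest RNA concentration and the lowest RNA integrity number of the 6. Its integrity number lay far below the range of the other libraries. This library was also the only BSM library from male mice, so leaving it out removes male mice from BSM. The parts of RNA quality and of sex in its values were not tested and cannot be told apart. These are bulk libraries, in which fewer cells of a type and less RNA per cell cannot be told apart.

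By FPKM, the members spanned more than 2 orders of magnitude in each cell type. In BMDM, Cd180 had the highest level (77.2 ± 13.4 FPKM, SD, n = 3), followed by Ly96 (22.4 ± 1.43) and Ly86 (20.2 ± 2.43), whose ranges overlapped. Irak4 came next (11.0 ± 0.950), then Ticam2 (6.93 ± 1.20), Irak3 (6.20 ± 0.484) and Unc93b1 (6.00 ± 1.18), where each range overlapped the next. Myd88 (2.29 ± 0.464) lay below these, and the ranges of Cd14 (0.642 ± 0.441) and Ticam1 (0.328 ± 0.0485) overlapped at the bottom. In BSM the order began again with Cd180 (96.9 ± 15.7), but Ly86 (34.5 ± 13.6) stood above Ly96 (11.96 ± 8.94), and Unc93b1 (6.57 ± 1.80) and Cd14 (5.13 ± 1.13) came next, where the ranges of Ly96 and Unc93b1 and those of Unc93b1 and Cd14 overlapped. Irak4 (2.33 ± 1.53), Ticam2 (2.33 ± 1.00), Irak3 (0.862 ± 0.857), Myd88 (0.498 ± 0.157) and Ticam1 (0.441 ± 0.205) followed, each with a range that overlapped the next. Among the 21167 genes listed above 0 in any library, Cd14 moved from a mean percentile of 58.0 in BMDM to 89.6 in BSM and Irak3 from 85.9 to 67.2, while Cd180 stayed at 99.1 and 99.6.

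**Figure D1:**
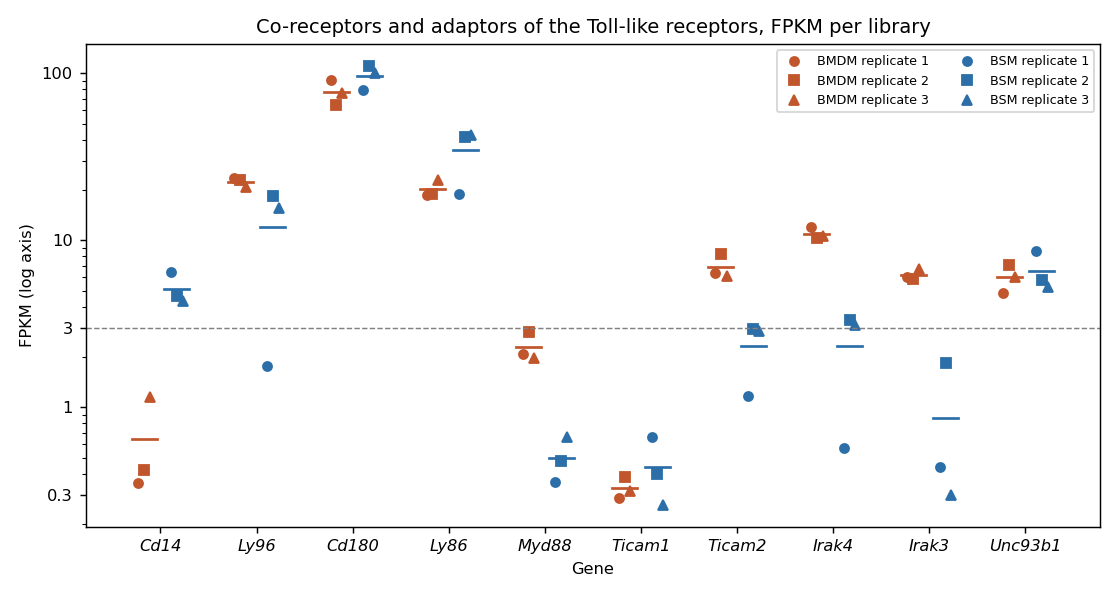
FPKM of the 10 genes (log axis) in each of the 3 BMDM and 3 BSM libraries, with the marker shape giving the replicate, a short line giving the group mean and the dashed line the level of 3 FPKM that a gene had to reach in at least 1 library to be tested. Cd14 lies higher in every BSM library, Myd88, Ticam2, Irak4 and Irak3 lie higher in every BMDM library, and BSM replicate 1 lies far below the other BSM libraries for Ly96 and Irak4.

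Of the 10 members, 8 reached 3 FPKM in at least 1 library and were tested. With limma on log2(FPKM + 1), 3 were higher in BMDM (Ticam2, Irak4 and Irak3), 1 was higher in BSM (Cd14) and 4 were not called (Ly96, Cd180, Ly86 and Unc93b1), whereas of all 6364 genes tested 54.5% were called, 45.3% with BMDM above BSM and 9.22% with BSM above BMDM. The median difference of the 8 was 0.59. After quantile normalization 2 members were higher in BMDM (Irak4 and Irak3) and 4 higher in BSM (Cd14, Cd180, Ly86 and Unc93b1), beside 21.7% and 19.3% of all genes tested (40.9% in all). Under the other treatments used for single members, the share of genes called was 38.2% with upper quartile scaling, 40.1% with equal sums of FPKM, 18.3% with no FPKM minimum and 34.0% with a minimum of 1 and quantile normalization. Without BSM replicate 1 it was 61.8% as deposited and 50.5% after quantile normalization. Cd14, Ticam2 and Irak3 reached the minimum of 3 FPKM only through the group in which they were higher, so their count is not evidence about the list. In 6 of the 10 members the FPKM of the groups did not overlap, 5 with the BMDM libraries on top and 1 with the BSM libraries on top. Among the 21167 genes listed above 0, these shares were 30.0% and 7.32%, or 37.4% in all.

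**Figure D2:**
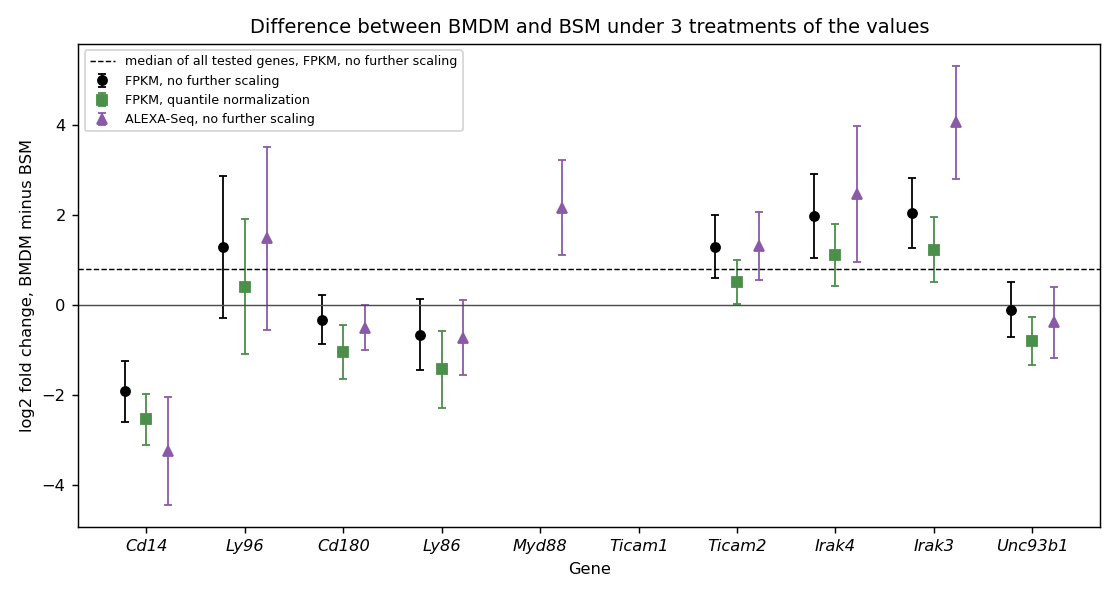
Difference between BMDM and BSM (log2, positive where BMDM is higher) with its 95% confidence interval from limma, for FPKM as deposited, FPKM after quantile normalization and ALEXA-Seq values as deposited. The dashed line is the median of all genes tested by FPKM as deposited, 0.81. Cd14 lies below 0 and Irak4 and Irak3 above 0 in all 3, the intervals of Ly86 and Unc93b1 exclude 0 in 1 of the 3, quantile normalization, and Myd88 and Ticam1 had too low an FPKM to be tested.

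Cd14, the co-receptor that binds lipopolysaccharide, was the member that was higher in BSM under every treatment of the data. Its FPKM was 0.352, 0.424 and 1.15 in BMDM and 6.43, 4.63 and 4.35 in BSM. The lowest BSM library thus lay above the highest BMDM library, BMDM replicate 3. The mean was 8.00-fold higher in BSM, and 6.99-fold without BSM replicate 1. On the log2 scale the difference was -1.92 (SE 0.29, adjusted p = 0.00125), or -2.72 relative to the median gene, and -2.54 after quantile normalization (adjusted p = 0.000157). ALEXA-Seq gave 4.99, 6.06 and 16.3 in BMDM against 113, 77.7 and 68.8 in BSM, a difference of -3.25 (adjusted p = 0.00223). Cd14 (ENSMUSG00000051439) lies on chromosome 18 of mm9, from 36884728 to 36886390.

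Immediate early genes, which are transcribed within minutes of a stimulus, had a higher sum in every BSM library, as Cd14 had. The 8 genes of this list summed to 20.6, 46.5 and 62.8 FPKM in the BMDM libraries and to 379, 281 and 227 in the BSM libraries. Of the 8, 6 reached 1 FPKM, and none was at 0 in every library of a group. Egr1 was at most 0.753 FPKM in BMDM and at least 94.3 in BSM, and Jun at most 14.0 and at least 86.4, and these 2 made up most of the BSM sums. In all, 4 of the 8 did not overlap between the groups (Egr1, Jun, Fosb and Junb) and 4 overlapped (Fos, Dusp1, Atf3 and Ier2), with Fos at 7.73 to 23.4 FPKM in BMDM and 18.5 to 30.9 in BSM. Junb was at most 0.150 FPKM in any library. Among the 21167 genes listed above 0, 37.4% did not overlap, 7.32% with the BSM libraries on top. Within each group the library with the highest sum, BMDM replicate 3 and BSM replicate 1, was also that with the highest Cd14. Their part in the level of Cd14 was not tested.

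Ly96, the subunit that holds lipopolysaccharide for Tlr4, had 23.5, 23.0 and 20.8 FPKM in BMDM and 1.76, 18.4 and 15.7 in BSM. The groups did not overlap, but BSM replicate 1 lay far below the other libraries. The log2 difference of 1.28 (SE 0.68, 95% confidence interval -0.29 to 2.85) was not called (adjusted p = 0.143), at 0.47 relative to the median gene and 0.41 after quantile normalization (adjusted p = 0.641). Without BSM replicate 1 it fell to 0.38 (adjusted p = 0.0805), and after quantile normalization of the 5 remaining libraries the sign turned, at -0.42 (adjusted p = 0.0731). The direction of Ly96 thus rested on this library and on the scaling. ALEXA-Seq had the same library low, at 26.8 against 284 and 259 in the other BSM libraries and 322 to 372 in BMDM.

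Cd180 (RP105), a receptor-like protein without a Toll signalling domain, was the most abundant member in both cell types. Its FPKM was 91.0, 64.2 and 76.3 in BMDM and 79.9, 110.7 and 100.2 in BSM, so that BMDM replicate 1 lay within the BSM range. The log2 difference of -0.33 (95% confidence interval -0.87 to 0.22) was not called by FPKM as deposited (adjusted p = 0.270) and was -1.13 relative to the median gene. After quantile normalization Cd180 was higher in BSM, by -1.04 (adjusted p = 0.0151). In ALEXA-Seq, where the groups did not overlap, the difference of -0.50 was not called as deposited (adjusted p = 0.0859) and reached -1.26 after quantile normalization (adjusted p = 0.00849).

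Ly86, the secreted partner of Cd180, had 18.6, 19.0 and 23.0 FPKM in BMDM and 18.9, 41.7 and 43.0 in BSM. BSM replicates 2 and 3 lay above every BMDM library, whereas BSM replicate 1 lay among them. The log2 difference was -0.66 (SE 0.34, adjusted p = 0.131), or -1.47 relative to the median gene, and without BSM replicate 1 it was -1.04 (adjusted p = 0.0022). Quantile normalization of all 6 libraries gave -1.43 (adjusted p = 0.0173). The mean was 1.71-fold higher in BSM, or 2.10-fold without BSM replicate 1.

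Unc93b1, the chaperone of the endosomal receptors, had 4.80, 7.15 and 6.03 FPKM in BMDM and 8.63, 5.79 and 5.28 in BSM. The groups overlapped, with BSM replicate 1 the highest of the 6 libraries. The log2 difference of -0.10 (95% confidence interval -0.72 to 0.52) was not called (adjusted p = 0.765) and was -0.91 relative to the median gene. It changed sign without BSM replicate 1 (0.085) or without BMDM replicate 1 (0.026). After quantile normalization it was -0.81 (adjusted p = 0.0261), with -0.62 (adjusted p = 0.0169) without BSM replicate 1.

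Myd88, the adaptor shared by most Toll-like receptors, had low values in both cell types. Its FPKM was 2.07, 2.82 and 1.97 in BMDM and 0.355, 0.474 and 0.666 in BSM. Every BMDM library was higher, by 4.59-fold in the mean, but none reached the minimum of 3. When the minimum was lowered to 1 FPKM the log2 difference was 1.13 (SE 0.23, adjusted p = 0.00517), at 0.55 relative to the median of the 9637 genes then tested, of which 44.9% were called, 37.2% with BMDM and 7.66% with BSM as the higher group. With quantile normalization as well it was 0.55 and no longer called (adjusted p = 0.0681). ALEXA-Seq gave 40.9, 55.3 and 36.9 in BMDM against 5.56, 9.16 and 13.9 in BSM, and Myd88 was called there both as deposited (2.16, adjusted p = 0.00748) and after quantile normalization (1.15, adjusted p = 0.0388).

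Ticam1, the adaptor of Tlr3 and of the endosomal arm of Tlr4, was the least abundant member in the mean of each group. Its FPKM was 0.286, 0.381 and 0.317 in BMDM and 0.664, 0.398 and 0.260 in BSM. The BMDM values lay within the BSM range. With no FPKM minimum the log2 difference was -0.11 (95% confidence interval -0.48 to 0.26, adjusted p = 0.641), and a difference was not detectable at this level. The number of reads behind single FPKM values was not given.

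Ticam2, which bridges Tlr4 to Ticam1, had 6.34, 8.30 and 6.13 FPKM in BMDM and 1.17, 2.95 and 2.86 in BSM. Every BMDM library was higher, by 2.98-fold in the mean, and by 2.39-fold without BSM replicate 1. The log2 difference was 1.29 (SE 0.30, adjusted p = 0.00867), which was 0.49 relative to the median gene. After quantile normalization it was 0.51 and not called (adjusted p = 0.0910), with upper quartile scaling it was 0.63 (adjusted p = 0.153) and with equal sums 0.27 (adjusted p = 0.536). Transcripts of Ticam2 share 19.9% of their longest form with those of Tmed7 in GENCODE M21, a neighbour at 8.73 to 9.26 FPKM in BMDM and 6.09 to 8.22 in BSM, so the split of reads between them is uncertain.

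Irak4, the kinase recruited first by Myd88, had 12.04, 10.26 and 10.56 FPKM in BMDM and 0.567, 3.32 and 3.10 in BSM. The lowest BMDM library lay above the highest BSM library, and BSM replicate 1 was again the lowest. The mean was 4.70-fold higher in BMDM and 3.41-fold without BSM replicate 1. The log2 difference was 1.98 (SE 0.40, adjusted p = 0.00463), 1.17 relative to the median gene, and 1.11 after quantile normalization (adjusted p = 0.0189). The call was lost with upper quartile scaling (1.31, adjusted p = 0.0578) and with equal sums (0.97, adjusted p = 0.150). Irak4 overlaps 3868 bases of Twf1, a gene on the opposite strand with 2.60 to 3.36 FPKM in BMDM and 0.372 to 2.64 in BSM. Since the strand setting of the counting was not given in the sources used here, reads of this stretch are uncertain.

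Irak3 (IRAK-M), which lacks kinase activity and restrains the Myd88 route, had 6.00, 5.84 and 6.75 FPKM in BMDM and 0.441, 1.85 and 0.297 in BSM. All 3 BMDM libraries lay within a narrow range above the BSM libraries, among which replicate 2 was the highest. The log2 difference was 2.04 (SE 0.34, adjusted p = 0.00184), 1.23 relative to the median gene. It was called under quantile normalization (1.23, adjusted p = 0.0156), upper quartile scaling (1.51, adjusted p = 0.0167) and equal sums (1.26, adjusted p = 0.0415). ALEXA-Seq gave 70.5, 74.8 and 67.8 in BMDM against 1.17, 5.96 and 4.40 in BSM, a difference of 4.05 (adjusted p = 0.00105). The mean was 7.19-fold higher in BMDM by FPKM and 18.5-fold by ALEXA-Seq, so the size of the difference depended on the quantification. Irak3 overlaps 541 bases of Tmbim4 on the opposite strand, which was also higher in every BMDM library (19.4 to 29.7 FPKM, against 0.599 to 12.3 in BSM), and its part in the Irak3 values was not tested.

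By ALEXA-Seq, 9 of the 10 members were among the 6364 genes tested. BMDM were higher in 4 (Myd88, Ticam2, Irak4 and Irak3) and BSM in 1 (Cd14), while 4 were not called. Of all genes tested 47.9% were called, 37.1% and 10.9% in these directions. After quantile normalization 3 were higher in BMDM (Myd88, Irak4 and Irak3) and 4 higher in BSM (Cd14, Cd180, Ly86 and Unc93b1), beside 22.6% and 21.2% of all genes (43.8% in all). Both tables were made from the same libraries and are not independent measurements.

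Ratios of partner genes were formed within each library, since a single scaling factor for a library cancels in them, as in upper quartile scaling or equal sums but not in quantile normalization. The 10 pairs were compared on the deposited values by an exact two-sided permutation test over the 6 libraries, which cannot give a p-value under 0.1. In 7 pairs the groups did not overlap, each with an exact p of 0.1 (adjusted p = 0.143), and the same 7 did not overlap in ALEXA-Seq. No pair could therefore pass a threshold of 0.05. Several pairs have a gene in common, and the share of other gene pairs without overlap was not computed. The count of 7 is thus not evidence about partner genes.

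In the lipopolysaccharide receptor, the ratio of Cd14 to Tlr4 was 0.157, 0.184 and 0.526 in BMDM and 2.58, 0.880 and 0.742 in BSM. The ratio of Ly96 to Tlr4 went the other way, with 10.5, 10.0 and 9.53 in BMDM and 0.706, 3.50 and 2.68 in BSM. By FPKM, Ly96 thus stood about 10.0-fold above its receptor in BMDM (geometric mean) and 1.88-fold in BSM, or 3.06-fold in BSM without replicate 1, the library in which it lay below Tlr4. By ALEXA-Seq the geometric means were 17.9 in BMDM and 2.49 in BSM, or 4.28 in BSM without replicate 1. The size of a ratio between genes thus depended on the quantification. Tlr4 itself had 2.24, 2.30 and 2.18 FPKM in BMDM and 2.49, 5.26 and 5.86 in BSM, a log2 difference of -0.71 that was not called as deposited by FPKM (adjusted p = 0.0799), was -1.59 after quantile normalization (adjusted p = 0.00270), and was called by ALEXA-Seq as deposited (-1.31, adjusted p = 0.0297). The ratio of Cd14 to Ly96 had a geometric mean of 0.0248 in BMDM and 0.634 in BSM, where it ranged from 0.251 to 3.66 with BSM replicate 1 the highest. Without that library the BSM mean was 0.264, still above every BMDM value.

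For MD-1 and RP105 the overlap of the groups rested on 1 library. Ly86 was 0.204, 0.295 and 0.301 of Cd180 in BMDM and 0.236, 0.377 and 0.429 in BSM (exact permutation p = 0.3). Without BSM replicate 1 the BSM values, with a geometric mean of 0.402, lay above every BMDM value, whose mean was 0.263. The ratio of the paralogous subunits Ly86 and Ly96 was 0.791, 0.826 and 1.10 in BMDM and 10.7, 2.26 and 2.74 in BSM, without overlap, and the BSM geometric mean of 4.05 was 2.49 without replicate 1.

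Among the adaptors, Myd88 stood at 7.26, 7.40 and 6.21 times the FPKM of Ticam1 in BMDM and at 0.534, 1.19 and 2.56 times in BSM. Ticam2 stood at 22.2, 21.8 and 19.3 times Ticam1 in BMDM and at 1.76, 7.41 and 11.0 times in BSM. Both ratios lay close together in BMDM and spread in BSM, with replicate 1 the lowest, and without it the BSM geometric mean went from 1.18 to 1.74 for Myd88 and from 5.23 to 9.02 for Ticam2. Myd88 relative to Irak4 overlapped between the groups (geometric mean 0.207 in BMDM and 0.267 in BSM, or 0.175 in BSM without replicate 1, exact permutation p = 0.8). Irak3 relative to Irak4 also overlapped by FPKM, with 0.498, 0.569 and 0.639 in BMDM and 0.778, 0.557 and 0.0956 in BSM (exact permutation p = 0.8). In ALEXA-Seq this last ratio did not overlap, with 0.534, 0.655 and 0.583 in BMDM and 0.175, 0.156 and 0.128 in BSM. Whether this ratio overlapped thus depended on the table, and by FPKM the BSM values spread widely.

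Unc93b1 was compared with Tlr7, an endosomal receptor for single-stranded RNA that it transports. The ratio was 0.318, 0.520 and 0.445 in BMDM and 0.119, 0.111 and 0.112 in BSM. By FPKM the BSM values lay close together and below every BMDM value. By ALEXA-Seq the ratio was 0.748, 1.29 and 1.12 in BMDM and 0.430, 0.347 and 0.286 in BSM. The groups did not overlap there either, but the BSM values spread more. Tlr7 had 13.5 to 15.1 FPKM in BMDM and 47.3 to 72.6 in BSM, and was called higher in BSM (log2 difference -1.92, adjusted p = 0.000488, and -2.67 after quantile normalization), while Unc93b1 overlapped.

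**Figure D3:**
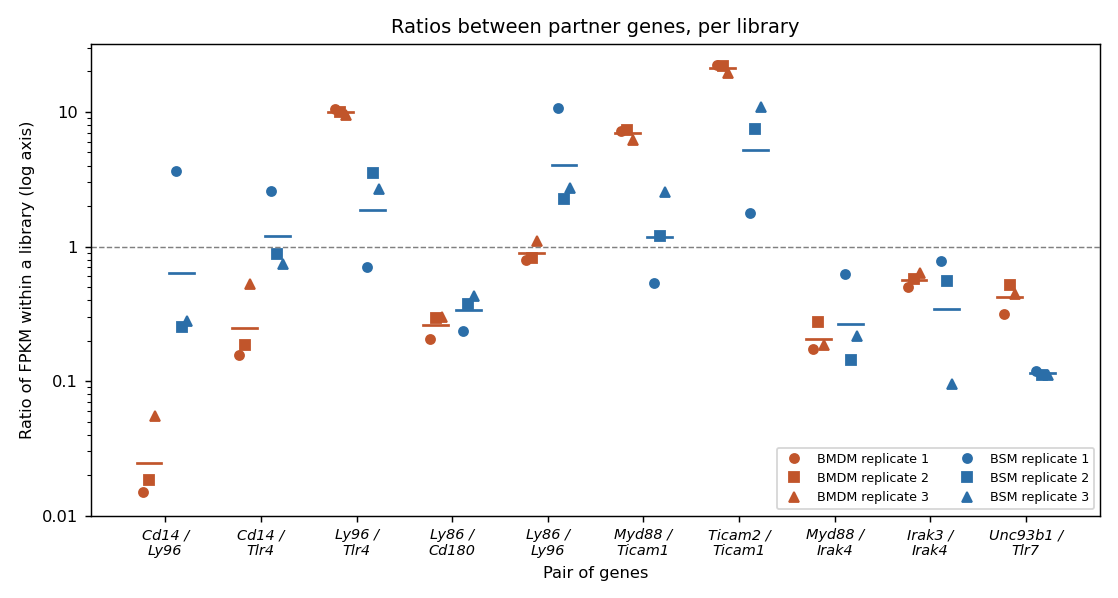
Ratio of the FPKM of 2 genes within each library (log axis) for the 10 pairs, with the marker shape giving the replicate and a short line the geometric mean of the group. The ratios of Cd14 to Ly96, Cd14 to Tlr4 and Ly86 to Ly96 are higher in every BSM library, those of Ly96 to Tlr4, Myd88 to Ticam1, Ticam2 to Ticam1 and Unc93b1 to Tlr7 are higher in every BMDM library, and Ly86 to Cd180, Myd88 to Irak4 and Irak3 to Irak4 overlap.

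The other genes of the pathway were listed by role, 44 in all, of which 29 reached 3 FPKM. Of the 29, BMDM were higher in 6 and BSM in 4, beside 45.3% and 9.22% of all genes tested, with a median log2 difference of 0.27 against 0.81 for all genes tested. After quantile normalization these counts were 1 and 10, beside 21.7% and 19.3%, with a median of -0.38 against 0.02. Of the 10 genes called as deposited, 6 reached 3 FPKM only through the group in which they were higher (Tlr8, Cnpy4, Ube2v1 and Traf6 in BMDM, Tlr3 and Peli2 in BSM), so these counts and medians are not evidence about the lists. Of 9 Toll-like receptors tested among 12 listed, 1 had its higher level in BMDM and 3 had it in BSM, and after quantile normalization the counts were 1 and 6. Tlr8, a receptor for RNA, was higher in BMDM, with 6.27 to 9.10 FPKM against at most 0.030 in BSM (log2 difference 3.10, adjusted p = 5.39e-05, and 2.41 after quantile normalization). The 3 receptors higher in BSM were Tlr1, Tlr3 and Tlr7. Tlr3, the receptor for double-stranded RNA that signals through Ticam1, had the largest difference, with 12.4 to 24.5 FPKM against 0.404 to 0.536 in BMDM (-3.54, adjusted p = 6.53e-05, and -4.15 after quantile normalization). Its adaptor Ticam1, under the minimum in both, overlapped between the groups.

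Of 4 chaperones and transport genes tested among 5 listed, Cnpy4 was called higher in BMDM by FPKM as deposited (0.97, adjusted p = 0.0237) and the other 3 were not called. The call of Cnpy4 was absent after quantile normalization (0.20, adjusted p = 0.640) and in ALEXA-Seq (1.07, adjusted p = 0.0887). Of the other 3, Slc15a4, named after its values were seen, was called higher in BMDM by limma in ALEXA-Seq (0.95, adjusted p = 0.0405). Among 13 of 20 further adaptors, kinases and ubiquitin enzymes that were tested, 4 were higher in BMDM (Ube2v1, Ripk1, Ikbkb and Traf6, of which the last 3 are named after their values were seen) and 1 was higher in BSM. Ube2v1, a partner of the ubiquitin-conjugating enzyme Ube2n, had a difference of 1.36 (adjusted p = 0.00637), level with that of Ripk1 (1.36, adjusted p = 0.0139), and Peli2, a ubiquitin ligase that acts on IRAK proteins, was the 1 higher in BSM (-1.02, adjusted p = 0.0221). After quantile normalization limma called none of the 4, of which 1, Ube2v1, had an unadjusted p under 0.05 (0.60, adjusted p = 0.0796), and it called Peli2 (-1.82, adjusted p = 0.00168). In ALEXA-Seq as deposited, limma did not call Peli2 (-1.24, adjusted p = 0.0601) or Traf6 (0.88, adjusted p = 0.0575). It called Ripk1 (1.55, adjusted p = 0.0346) and Ikbkb (1.08, adjusted p = 0.00682), and Ube2v1 had no result there. None of 3 inhibitors tested among 7 listed was called by limma as deposited, 1 of them having an unadjusted p under 0.05, and 1 was called higher in BSM after quantile normalization.

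**Figure D4:**
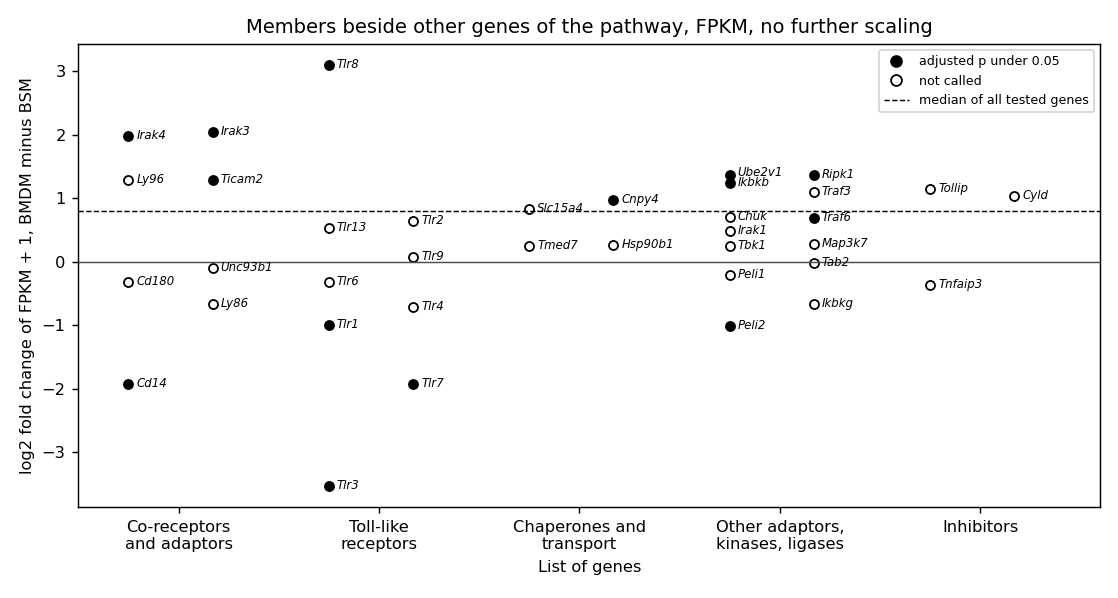
Difference between BMDM and BSM in log2(FPKM + 1), positive where BMDM is higher, for the 8 members tested and for the other tested genes of the pathway by role. Filled points have a limma adjusted p under 0.05, open points were not called, and the dashed line is the median of all genes tested (0.81). Irak3, Irak4 and Ticam2 lie above the line with Tlr8, and Cd14 lies below 0 with Tlr3, Tlr7, Tlr1 and Peli2.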

How the data were processed

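RNA of the 6 sorted pools was amplified with the Ovation RNA-Seq method and sequenced on an Illumina HiSeq. Per the submitters' processing notes the tools were CASAVA 1.7.0, TopHat 1.3.1, Bowtie 0.12.7 and Cufflinks 1.0.3 with genome build mm9. The authors deposited FPKM per gene, already scaled for transcript length and mapped fragments. They also deposited an ALEXA-Seq expression signal per gene, whose normalization was not given in the sources used here. Neither table holds read counts, so the number of reads behind a single value is not given and no count model was used. Mapped reads per library are listed in the paper, with the most for BSM replicate 1. Precision is limited by 3 pools per group. Low ALEXA-Seq values fall on steps, from which the relative numbers of reads were 0.891 to 1.16 of BMDM replicate 1. Gene starts were taken as counted from 0 in the files and are given counted from 1.

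The comparison of FPKM used limma 3.58.1 (R 4.3.3) with moderation by a mean-variance trend, on values transformed as log2(FPKM + 1). It took in the 6364 genes that reached 3 FPKM in any library, and as many ALEXA-Seq genes with the highest values were tested likewise on log2(value + 1). Folds on this scale understate the change of low genes. Adjustment was by Benjamini-Hochberg over all genes tested, and a gene was called at an adjusted p under 0.05. The step was tested on simulated data. Groups came from the sample labels, which describe the samples as biological replicates. Alternatives were an FPKM minimum of 1 or none, a pseudocount of 0.1, 3 scalings, no trend, the replicate number as a block, and each library left out in turn. All members were named, with the genes used in a pair and, per pathway list, the called gene with the largest difference in each direction. Genes with a share of transcript in common were sought with blastn 2.17.0 in GENCODE M21 (at least 100 bases at 95% identity). Such shares were 9.11% for Myd88 (with Acaa1a), 19.9% for Ticam2 and 11.7% for Irak4, and 0% for the other 7 members. Python 3.11.15, pandas 2.3.3, scipy 1.17.1 and matplotlib 3.10.9 were used. The members, lists and tests were chosen with earlier results of these data known. From the microglial list, 1 gene is not reported here.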

Additional observations from a re-analysis of the deposited data

How the results depend on the processing

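Of the member calls by FPKM, those of Cd14 and Irak3 held in every alternative run, and Ticam2 and Irak4 depended on scaling. The numbers of genes higher in BMDM and in BSM, 2883 and 587 as deposited, became 1378 and 1227 with quantile normalization, 1380 and 1051 with upper quartile scaling, 968 and 1585 with equal sums, 1729 and 1549 with quantile normalization and an FPKM minimum of 1, and 1641 and 1576 with quantile normalization without BSM replicate 1. The last 2 alternatives were chosen after seeing the data. Members higher in BSM numbered 4 under each of these 5, against 1, and members higher in BMDM numbered 1 with upper quartile scaling and with equal sums, against 3. Pathway genes higher in BMDM and in BSM, 6 and 4 as deposited, became in the same order 1 and 10, 1 and 8, 1 and 15, 3 and 12, and 1 and 14. By ALEXA-Seq, quantile normalization gave 1439 and 1349 genes against 2359 and 691, with 4 members higher in BSM, and without BSM replicate 1 as well it gave 1677 genes and 4 members higher in BSM. There the difference of Ly96 was -0.42 in both tables, against 1.28 and 1.48.

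Leaving out 1 library at a time, the pathway genes higher in BMDM ranged from 3 to 8, the highest without BSM replicate 1, and members higher in BSM by FPKM from 1 to 2, the second being Ly86 without BSM replicate 1. The counts over all genes by FPKM moved with these. Genes higher in BMDM numbered 2313 and 2037 without BMDM replicate 2 or 3, where the pathway count was 3. Without BSM replicate 1, 3194 genes were higher in BMDM and 738 in BSM, against 2883 and 587 with all libraries. By ALEXA-Seq, genes called ranged from 1971 to 3984 and those higher in BMDM from 1452 to 3082, lowest without BMDM replicate 3 and highest without BSM replicate 1. Members higher in BMDM ranged from 2 to 4, where the call of Irak4 was lost without any 1 BMDM library (differences of 2.40, 2.51 and 2.49 against 2.47, adjusted p = 0.060 to 0.0647) and that of Ticam2 without BMDM replicate 2 or 3 (1.14 and 1.39 against 1.31, adjusted p = 0.0528 and 0.0519), and members higher in BSM from 1 to 3, with Cd180 and Ly86 added without BSM replicate 1. The Unc93b1 difference by FPKM ranged from -0.22 to 0.085 (0.026 without BMDM replicate 1, 0.085 without BSM replicate 1), the log2 difference of Myd88 to Irak4 from -0.83 to 0.24 (positive without BSM replicate 1) and that of Irak3 to Irak4 from -0.22 to 1.29 (negative without BSM replicate 3). The cause of these changes was not tested.

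The main comparison did not pair libraries by replicate number. The deviations of same-numbered libraries correlated at -0.0195, -0.00836 and 0.134, and those of differently numbered libraries at -0.113 to 0.0685. With 3 libraries per group these values cannot show whether the samples were paired. With the replicate number as a block, 3471 genes were called by FPKM, 2905 and 566 in the same directions, and 2885 by ALEXA-Seq, 2251 and 634, with 3 and 1 members by FPKM and 4 and 1 by ALEXA-Seq. In all, 390 of the alternative values kept their direction and call or, for counts, stayed near the main count. Counts taken as near included 2431 genes called with upper quartile scaling against 3470. They also included 4 pathway genes higher in BMDM without BSM replicate 2, against 6. Of the other alternative values, 40 counts moved, 24 differences became called, 14 lost their call and 6 changed sign. The unknown number of reads behind single values limits statements on Ticam1 and Myd88, which lie under 3 FPKM.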
